A study of Rattus norvegicus with 100 samples.

Results

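The kynurenine pathway of tryptophan breakdown was followed in primary rat hepatocytes through 8 genes, Tdo2, Afmid, Kmo, Kynu, Aadat, Haao, Acmsd and Qprt. They were chosen by name from the 13439 genes that had a probe set with a single gene symbol, and all 8 were measured and were among the 8843 genes above a log2 intensity of 5 in at least 3 arrays. Where a gene had several such probe sets, the one with the highest mean over all arrays was used, which concerned Afmid alone. Kmo and Aadat were singled out because earlier results of these data showed the first falling and the second rising with the agent, so their responses to it are described here without a test.

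The cells were hepatocytes isolated from 4 rats (Rs627, Rs628, Rs631 and Rs632), plated on collagen IV with Geltrex, and exposed to GW7647, a compound made to activate PPARα, the nuclear receptor that senses fatty acids in the liver. The concentrations were 0.001, 0.01, 0.1, 1 and 10 µM, or 0 µM, and RNA was taken at 2, 6, 12, 24 and 72 h. Each of the 100 arrays measured a culture from 1 rat, and the 30 groups held 2 to 4 arrays. The labels give neither strain, sex nor age, and leave unsaid whether solvent was added to the 0 µM cultures.

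The liver breaks down most dietary tryptophan through this pathway. Tryptophan 2,3-dioxygenase (Tdo2) opens the ring of tryptophan, and arylformamidase (Afmid) releases kynurenine. At kynurenine the pathway forks. Kynurenine 3-monooxygenase (Kmo), a protein of the outer mitochondrial membrane, hydroxylates it, and kynureninase (Kynu) and 3-hydroxyanthranilate dioxygenase (Haao) carry it on. The product can then go to quinolinate, which quinolinate phosphoribosyltransferase (Qprt) feeds into NAD synthesis, or be drawn off by ACMS decarboxylase (Acmsd) towards complete oxidation. In the other branch kynurenine aminotransferase II (Aadat) converts kynurenine to kynurenic acid, and the same enzyme also acts on aminoadipate in lysine breakdown.

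The regions before Kmo, Aadat and Afmid are shown because the results turn on these genes and PPARα is known to bind, with its partner RXR, a direct repeat of AGGTCA with a single base between. RefSeq promoter windows of the rat (build GRCr8, 250 bases before to 50 after a gene's start) matched 7 of the 8 genes, all but Acmsd. For these 3 genes the start site of the window lies inside the annotated gene. Only bases before the annotated gene are printed for Kmo and Afmid, which leaves 69 and 198 bases, while the whole Aadat window lies inside the gene span and the 250 bases before its start site are printed. They run 5′ to 3′ on the strand of the gene, with AGGTCA on the printed strand in capitals. The annotated genes are Kmo at chr13:90089340-90121108, Aadat at chr16:34520236-34566388 and Afmid at chr10:103544822-103560408.

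Kmo, chr13:90089271-90089339, plus strand: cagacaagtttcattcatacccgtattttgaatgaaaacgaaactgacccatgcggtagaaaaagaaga

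Aadat, chr16:34555181-34555430, minus strand: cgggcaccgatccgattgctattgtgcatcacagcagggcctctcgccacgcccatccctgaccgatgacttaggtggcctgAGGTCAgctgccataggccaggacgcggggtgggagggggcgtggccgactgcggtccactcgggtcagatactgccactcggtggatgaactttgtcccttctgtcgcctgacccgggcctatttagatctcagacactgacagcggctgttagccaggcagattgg

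Afmid, chr10:103544624-103544821, plus strand: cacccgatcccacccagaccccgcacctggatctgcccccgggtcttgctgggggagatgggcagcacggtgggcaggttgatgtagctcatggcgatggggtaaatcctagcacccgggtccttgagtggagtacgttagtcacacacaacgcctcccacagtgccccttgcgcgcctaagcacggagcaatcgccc

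The repeat (AGGTCA, any single base, AGGTCA, known as DR1) was searched on both strands of each whole window and was in none of the 7. It was in 18 of 33469 windows of the rat table (0.0538%). AGGTCA alone, which overlaps that repeat, was in 5415 windows (16.2%) and in those of Aadat, shown in capitals above, and Haao. A match is a description of these letters, and no match says only that the letters are not in this window.

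The values were log2 intensities as the authors deposited them, with 5 as the floor below which values were not read as levels. Kmo exceeded it in 79 of 100 arrays and Acmsd in 38, and the other 6 genes did in all 100. The upper quartile of an array, a measure of its overall signal, ranged from 6.42 to 7.27. It was under 6.6 in 5 arrays, including Rs631 and Rs632 at 1 µM and 24 h, and the median change of all genes in that group was -0.23 on the log2 scale. Each label ends in a letter-and-number code in the form of a plate position, whose meaning the labels do not give, and 23 arrays, all 5 of low signal among them, share a code with another. At 12 h and 0 µM, deviations from the group mean in the array labelled Rs627 had a median correlation of 0.76 with those of Rs628 arrays and -0.02 with those of Rs627. For the array labelled Rs628 the correlations were -0.22 with Rs628 and 0.51 with Rs627. Both arrays belong to the same group, so group means do not depend on which is which, but pairs within a rat at 12 h and models with the rat do. Hepatocyte markers (Alb, Ttr, Apoa1, Serpina1 and Hnf4a) were measured as 5 of the 6 listed, with a log2 summed intensity of 14.57 to 15.29 in every array. Pecam1, Stab2, Kdr and Lyve1 of endothelium, and Cd163, Clec4f, Adgre1, Csf1r and Ptprc of macrophages, were at or under 5 in every array. Other markers were detected. Of those with a probe set, 1 of 6 for macrophages, 3 of 4 for bile duct and 3 of 6 for stellate cells exceeded 5 in at least 3 arrays. In a culture measured as a whole, fewer cells of a type and less RNA per cell cannot be told apart.

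**Figure D1:**
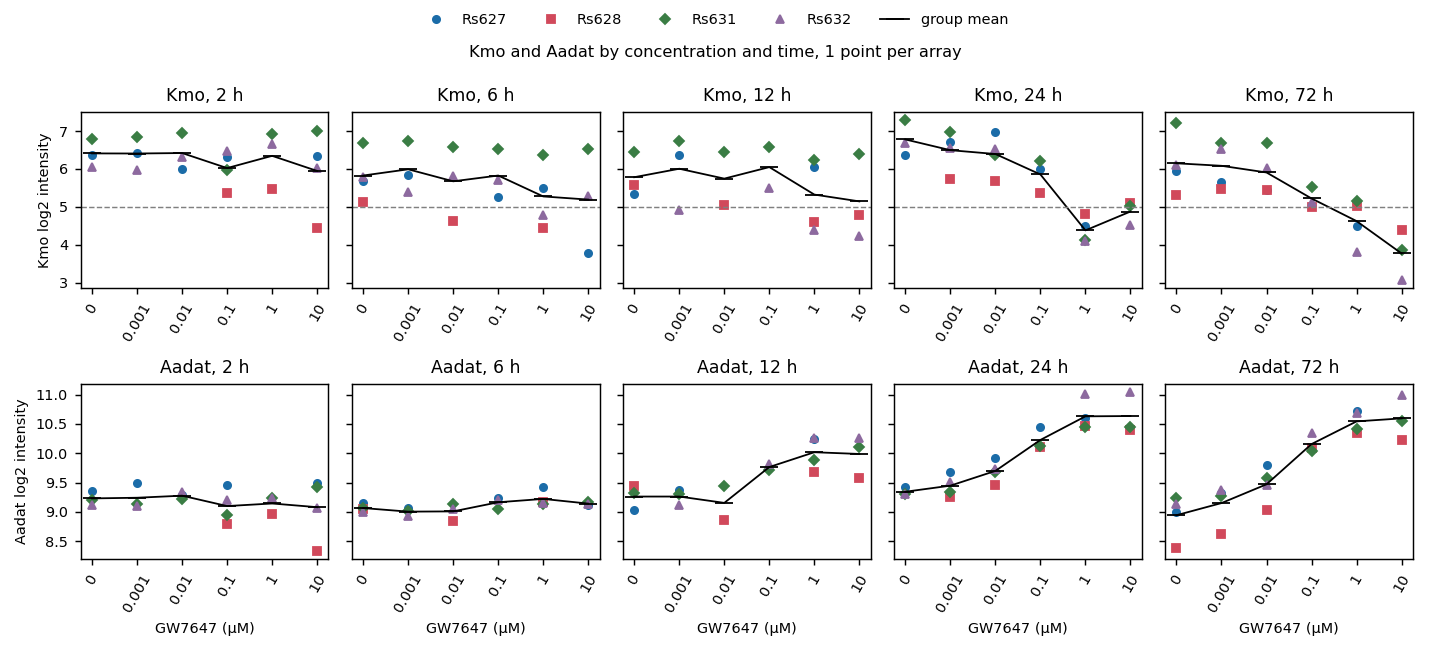
Log2 intensity of Kmo (top) and Aadat (bottom) against the concentration of GW7647 (µM, on equally spaced steps), in a panel for each time, with a point per array, a symbol per rat and a line through group means. The dashed line is the floor of 5. At 24 and 72 h the Kmo means from 0.1 µM on lie below, and the Aadat means above, those at 0 µM.

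Kmo and Aadat stand on opposite sides of the fork at kynurenine, and at the late times their intensities moved in opposite directions. Kmo at 24 h was 4.49, 4.81, 4.11 and 4.10 in the 4 arrays at 1 µM (Rs627, Rs628, Rs631 and Rs632), against 6.36, 7.29 and 6.69 at 0 µM (Rs627, Rs631 and Rs632). All 4 treated arrays lay under the floor and all 3 at 0 µM above it, so the groups did not overlap. With values under 5 set to 5, Kmo was at least 3.43-fold lower at 1 µM, and the log2 difference as measured was -2.40 ± 0.54 (SE of the fit). The difference within a rat, as measured, was between -3.17 and -1.87 in the 3 rats with both arrays. Without the 2 arrays of low signal in that group the log2 difference was -2.13. Arrays of 29.3% of all genes likewise did not overlap at 24 h and 1 µM.

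Aadat at 24 h was 10.60, 10.46, 10.45 and 11.02 in the arrays at 1 µM (Rs627, Rs628, Rs631 and Rs632), against 9.43, 9.31 and 9.30 at 0 µM (Rs627, Rs631 and Rs632). Every treated array exceeded every array at 0 µM. The log2 difference was 1.29 ± 0.19, which is 2.44-fold, and 1.18 without the arrays of low signal. In the 3 rats with both arrays it was between 1.14 and 1.72. At 0.01 µM and 24 h Aadat was 9.92, 9.46, 9.68 and 9.73 in the same order of rats, and did not overlap those at 0 µM (0.36 ± 0.19), as was so for 4.18% of all genes. At 10 µM the differences were 1.29 ± 0.21 for Aadat and -1.90 ± 0.58 for Kmo, at least 3.34-fold for Kmo.

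At 72 h the whole concentration series could be read in nearly every rat. Mean Kmo was 6.15 ± 0.79 (SD, n = 4) at 0 µM, 6.08 ± 0.62 (n = 4) at 0.001 µM and 5.91 ± 0.59 (n = 4) at 0.01 µM, so these 3 differed by less than their spread. It was 5.22 ± 0.28 (n = 3) at 0.1 µM, 4.62 ± 0.62 (n = 4) at 1 µM and 3.77 ± 0.65 (n = 3) at 10 µM. Aadat over the same series was 8.94 ± 0.38 at 0 µM, 9.15 ± 0.35 at 0.001 µM, 9.47 ± 0.32 at 0.01 µM, 10.16 ± 0.17 at 0.1 µM, 10.54 ± 0.19 at 1 µM and 10.60 ± 0.38 at 10 µM. From 0.1 µM upwards no Aadat array overlapped those at 0 µM, whereas Kmo at 0.1 µM still did. At 72 h the groups of 23.8% of all genes did not overlap at 0.1 µM, and those of 36.9% did not at 10 µM.

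By rat, Kmo at 72 h was 4.49, 5.03, 5.16 and 3.81 at 1 µM, against 5.95, 5.32, 7.22 and 6.10 at 0 µM (Rs627, Rs628, Rs631 and Rs632). It was lower at 1 µM in 4 of 4 rats, with log2 differences as measured between -2.29 (Rs632) and -0.29 (Rs628). Rs627 and Rs632 at 1 µM were under the floor, so the size of their falls is not read. The groups did not overlap, which was so for 28.8% of all genes. The group difference was -1.53 ± 0.50, at least 2.14-fold, with 2 of 4 treated arrays above the floor. Aadat was 10.73, 10.35, 10.41 and 10.68 at 1 µM, against 9.0, 8.39, 9.24 and 9.14 at 0 µM in the same rats. It was higher in 4 of 4 rats, and the log2 difference was 1.60 ± 0.18 (3.03-fold). Values at 10 µM were close to those at 1 µM for Aadat (1.65 ± 0.19 against 0 µM) and lay further down for Kmo (-2.38 ± 0.54), though all 3 Kmo arrays at 10 µM were under the floor and have no order there.

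The earlier times held smaller differences. At 2 h and 1 µM Kmo differed by -0.06 ± 0.58 and Aadat by -0.09 ± 0.21, each within its error. At 6 h Kmo was lower in 4 of 4 rats (-0.55 ± 0.50) and Aadat higher in 4 of 4 (0.16 ± 0.18), with overlapping arrays for both genes. At 12 h the Aadat difference was 0.76 ± 0.19 and its groups no longer overlapped, when 11.5% of all genes had groups that did not. Kmo at 12 h gave no settled value, since -0.46 ± 0.54 over all arrays became 0.18 without the arrays that share a code and -1.12 without the 2 arrays whose rat labels are in doubt. Averaged over the 5 times, Kmo as measured differed by 0.01 ± 0.24 at 0.001 µM and -0.16 ± 0.25 at 0.01 µM. Its difference was -0.39 ± 0.25 at 0.1 µM, -1.0 ± 0.24 at 1 µM and -1.20 ± 0.25 at 10 µM. Arrays under the floor entered each of these averages, so no order is read between 1 and 10 µM. For Aadat the averages were 0.05 ± 0.09, 0.15 ± 0.09, 0.51 ± 0.09, 0.74 ± 0.09 and 0.72 ± 0.09 over the same concentrations. All concentrations share the 0 µM arrays of their time.

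Pairs of arrays from the same rat and time were counted by whether both movements came together. Both genes were singled out for these movements, so the counts describe them and test nothing. The pairs come from the same 4 rats, and the concentrations share the 0 µM arrays. At 0.001 µM, 4 of 15 pairs had Kmo lower and Aadat higher than at 0 µM, and at 0.01 µM 6 of 15 did. The number was 8 of 12 at 0.1 µM, 13 of 16 at 1 µM and 10 of 13 at 10 µM. At 1 µM the pairs were 0 of 2 at 2 h, 4 of 4 at 6 h, 2 of 3 at 12 h, 3 of 3 at 24 h and 4 of 4 at 72 h.

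**Figure D2:**
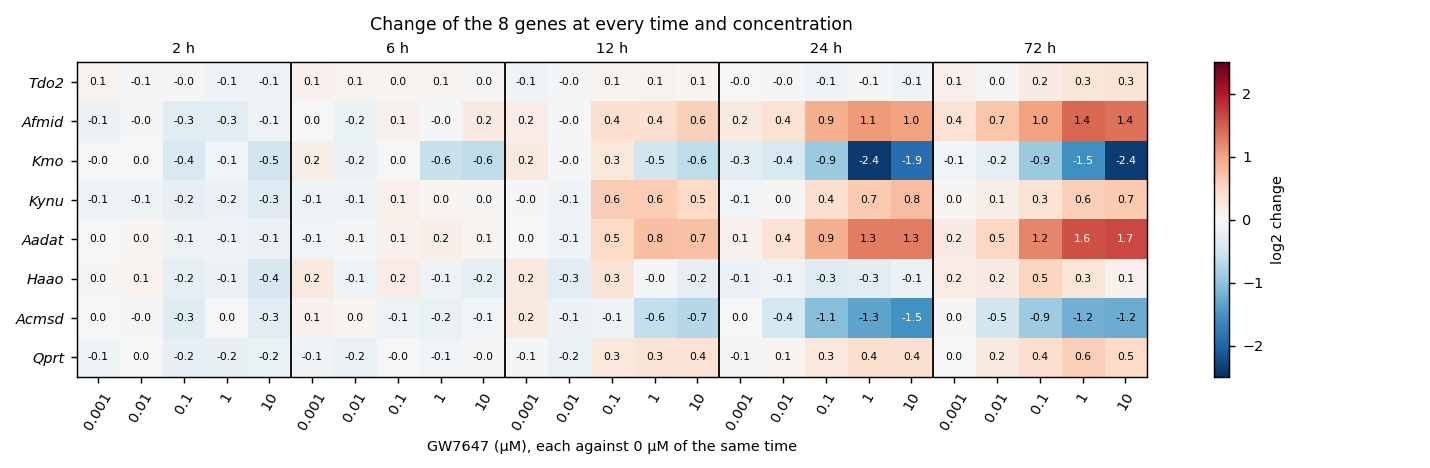
Log2 change of the 8 genes (rows, in pathway order) at each concentration of GW7647 against 0 µM of the same time (columns, grouped by time), from the model with 30 group means. Red is higher and blue lower than at 0 µM, and values under the floor of 5 enter as measured. Afmid and Aadat are red and Kmo and Acmsd blue from 0.1 µM on at 24 and 72 h, while Tdo2 stays within 0.33 of 0 at these times.

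The other 6 genes were tested against 0 µM with limma in a fit over all 8843 genes, and adjusted p-values are Benjamini-Hochberg values from that fit. At 1 µM none of the 6 passed at 2, 6 or 12 h, where 0.373%, 2.04% and 5.41% of all genes did. At an unadjusted p under 0.05 the counts were 0, 0 and 1 of the 6, and 197, 713 and 1280 of all 8843 genes. In a model that also fits the rat (a block for the animal), 2 of 6 passed at 12 h, Kynu (adjusted p = 3.51e-04) and Acmsd (0.0299), as did 998 of the 8843 genes. At 12 h Acmsd exceeded 5 in 0 of 4 arrays at 1 µM and 1 of 3 at 0 µM. No Acmsd response is read there. At 24 h 3 of 6 passed, Afmid and Kynu higher and Acmsd lower, when 29.6% of all genes did. At 72 h 4 of 6 passed, Afmid, Qprt and Tdo2 higher and Acmsd lower, against 26.8% of all genes. The median log2 change of the 6 genes was 0.17 at 24 h and 0.45 at 72 h, beside -0.23 and -0.06 for all genes tested.

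Afmid, the step before the fork, rose at 24 and 72 h. At 72 h it was 10.17, 9.73, 9.93 and 10.23 at 1 µM, against 8.74, 8.12, 8.48 and 8.96 at 0 µM (Rs627, Rs628, Rs631 and Rs632). The arrays did not overlap and every rat was higher at 1 µM, by 1.26 to 1.61 on the log2 scale. Afmid rose 2.71-fold (1.44 ± 0.20, adjusted p = 1.41e-08).

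At 24 h it was 10.15, 9.79, 9.69 and 10.13 at 1 µM, against 9.17, 8.66 and 8.82 at 0 µM (Rs627, Rs631 and Rs632). This was a rise of 2.08-fold (1.06 ± 0.21, adjusted p = 9.73e-05), again without overlap. At 0.1 µM Afmid passed at 24 h (0.90 ± 0.23, adjusted p = 0.00819) and at 72 h (1.01 ± 0.21, adjusted p = 5.40e-04). At 10 µM the change was 1.00 ± 0.23 at 24 h (adjusted p = 7.13e-04) and 1.37 ± 0.21 at 72 h (adjusted p = 2.94e-07). In the same fits 4.32% and 8.82% of all genes passed at 0.1 µM and 24 and 72 h, and 17.1% and 28% did at 10 µM.

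The rise at 1 µM was larger at 72 h than at 6 h by 1.46 ± 0.28 on the log2 scale (adjusted p = 2.09e-04), and Afmid was the single gene of the 6 whose change differed between these times, a contrast that 5.35% of all genes passed. With the animal as a block, Kynu (adjusted p = 0.0169), Acmsd (0.00459) and Qprt (5.61e-04) passed it as well, among 1423 of the 8843 genes. Acmsd exceeded 5 in 1 of 4 arrays at 6 h, both at 1 µM and at 0 µM. At 72 h it did in 0 of 4 at 1 µM and 2 of 4 at 0 µM, so its growth is not read. Afmid has 3 probe sets with its symbol alone, and they gave differences of 1.25, 1.40 and 1.44 at 1 µM and 72 h, and 1.09, 0.96 and 1.06 at 24 h.

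Acmsd, which draws the pathway's intermediate away from NAD synthesis, was the only one of the 6 tested genes that fell at 1 µM at 24 and 72 h, and it was measured close to the floor. At 24 h it was 3.93, 3.83, 3.85 and 3.82 at 1 µM (Rs627, Rs628, Rs631 and Rs632), against 4.57, 5.25 and 5.70 at 0 µM (Rs627, Rs631 and Rs632). No treated array and 2 of 3 arrays at 0 µM exceeded 5. The change as measured was -1.32 ± 0.36 (adjusted p = 0.00357), and with values under 5 set to 5 the fall was at least 1.25-fold.

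At 72 h Acmsd was 3.51, 3.50, 3.97 and 3.44 at 1 µM, against 4.24, 4.15, 5.76 and 5.09 at 0 µM. All 4 arrays at 1 µM and 2 of 4 at 0 µM (Rs627 and Rs628) were under the floor, so an order can be read in Rs631 and Rs632 alone, both lower at 1 µM. The change as measured was -1.20 ± 0.33 (adjusted p = 0.00334), at least 1.16-fold. Rs632 decided both calls, since without it the adjusted p was 0.208 at 24 h and 0.101 at 72 h. The floor leaves the size of the fall unmeasured.

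Kynu, the enzyme that splits the side chain off hydroxykynurenine, was 9.86, 9.57, 10.07 and 10.12 at 1 µM and 24 h, against 9.17, 9.32 and 9.23 at 0 µM (Rs627, Rs631 and Rs632). It rose 1.58-fold (0.66 ± 0.26, adjusted p = 0.0448). The adjusted p was 0.341 without the arrays of low signal and 0.342 without those that share a code. Leaving out a rat gave 0.154 without Rs627, 0.101 without Rs631 and 0.376 without Rs632. With median centring it was 0.0569, and with no filter on intensity 0.0592. At 72 h it was 9.54, 8.97, 9.84 and 9.43 at 1 µM, against 9.01, 8.33, 9.18 and 8.88 at 0 µM. Every rat was higher at 1 µM, by 0.53 to 0.66, while the groups overlapped because the rats themselves differ. The test over groups missed the threshold (0.60 ± 0.24, adjusted p = 0.0563), and it passed with the animal as a block (adjusted p = 3.40e-05). At 10 µM Kynu passed at 24 h (0.76 ± 0.28, adjusted p = 0.0458) and at 72 h (0.65 ± 0.26, adjusted p = 0.0496). With Afmid and Acmsd the count at 10 µM was 3 of 6 at 24 h, when 17.1% of all genes passed. Tdo2 joined them at 72 h, which made 4 of 6, when 28% of all genes passed. No alternative was run on the calls at 10 µM at a single time.

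Qprt, the entry to NAD synthesis, was 10.35, 10.21, 9.88 and 9.95 at 1 µM and 72 h, against 9.82, 9.28, 9.23 and 9.65 at 0 µM (Rs627, Rs628, Rs631 and Rs632). It was higher in 4 of 4 rats and rose 1.52-fold (0.60 ± 0.24, adjusted p = 0.0494). This call was lost without Rs627 (adjusted p = 0.0811), Rs628 (0.278) or Rs632 (0.128). It was also lost with no filter on intensity (0.0677) and without the arrays that share a code (0.07). With the animal as a block the call was kept. At 24 h Qprt differed by 0.39 ± 0.26 (adjusted p = 0.23), and by 0.40 with the animal as a block (adjusted p = 0.00351).

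Tdo2, the first enzyme of the pathway, varied least, between 12.02 and 12.82 over all 100 arrays. At 72 h it was 12.61, 12.57, 12.51 and 12.75 at 1 µM, against 12.02, 12.30, 12.41 and 12.51 at 0 µM. It was higher in 4 of 4 rats and rose 1.23-fold (0.30 ± 0.08, adjusted p = 0.00368), by the same measure 0.32 ± 0.09 at 10 µM (adjusted p = 0.00351). The Rs627 array at 0 µM was the lowest of all 100, and without Rs627 the change at 1 µM was 0.20 (adjusted p = 0.14). The 10 µM group had no Rs627 array, so this low value entered the 0 µM mean alone. The change at 10 µM without it was not tested.

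Haao did not pass at 1 µM at any time. At 72 h it was 9.11, 8.43, 9.72 and 9.36 at 1 µM, against 8.80, 7.88, 9.63 and 9.11 at 0 µM (Rs627, Rs628, Rs631 and Rs632). All 4 rats were slightly higher at 1 µM, but the rats spanned more than a log2 unit in each group (0.30 ± 0.48, adjusted p = 0.71).

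**Figure D3:**
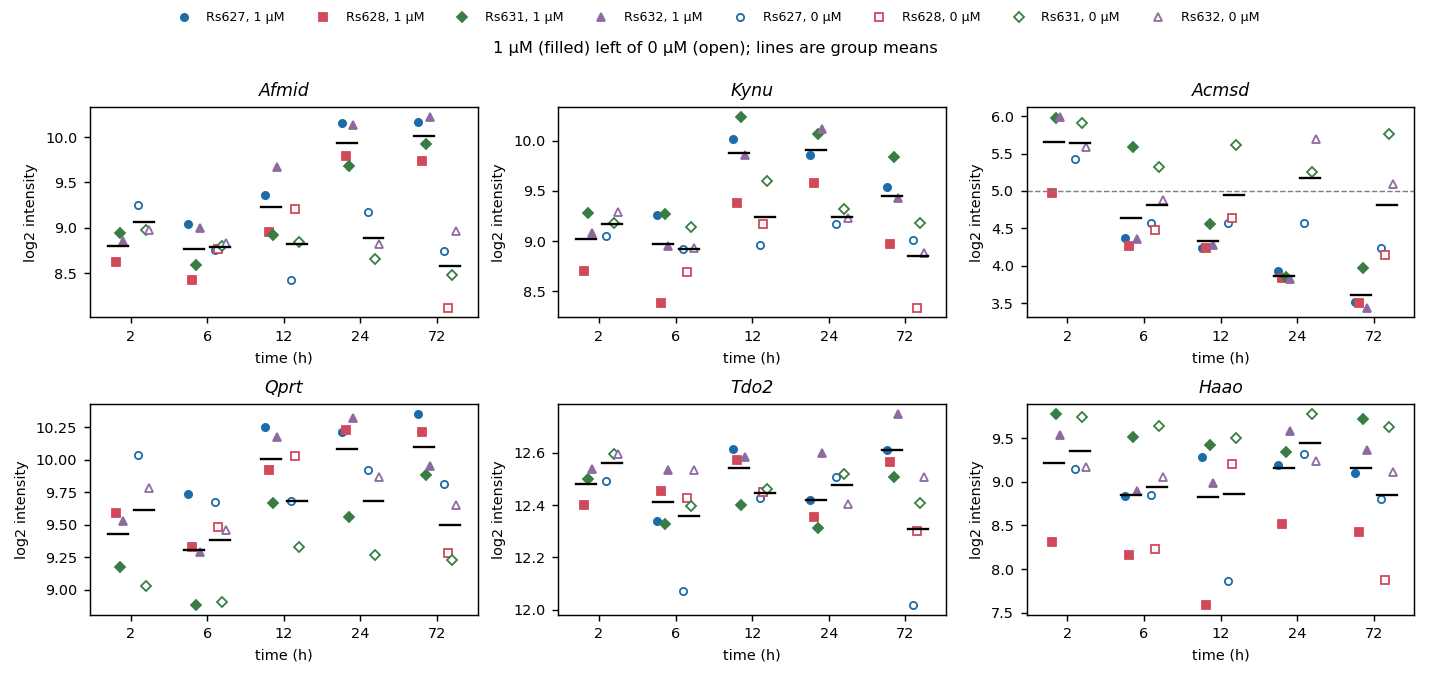
Log2 intensity of the 6 tested genes at 1 µM (filled symbols, left) and 0 µM (open symbols, right) at each time, with a point per array, a symbol per rat and a line at each group mean. The dashed line in the Acmsd panel is the floor of 5. Afmid separates at 24 and 72 h, Acmsd at 1 µM lies under the floor there, while the Haao rats keep apart from each other in both groups.

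Averaged over the times, 2 of the 6 genes passed at 0.1 µM, when 14.3% of all genes did. Afmid was higher (0.43 ± 0.10, adjusted p = 0.00108) and Acmsd lower (-0.50 ± 0.17, adjusted p = 0.0334). Without Rs632 neither Afmid (adjusted p = 0.0801) nor Acmsd (0.31) passed. The Acmsd call was also lost without Rs627 (0.0631), Rs631 (0.109) or the arrays that share a code (0.0788). At 1 µM, where 35.4% of all genes passed, Kynu was called with them (0.36 ± 0.11, adjusted p = 0.0102), and the same 3 genes passed at 10 µM, where 39.4% did. The average for Afmid was 0.52 ± 0.09 at 1 µM and 0.62 ± 0.10 at 10 µM. For Acmsd it was -0.66 ± 0.16 at 1 µM and -0.76 ± 0.16 at 10 µM, as measured. Without the 12 h arrays of doubtful rat label Kynu's adjusted p was 0.0763 at 1 µM and 0.126 at 10 µM. Its call at 1 µM was also lost without Rs627 (adjusted p = 0.152) or Rs632 (0.119), and that at 10 µM without Rs627 (0.175), Rs631 (0.275) or Rs632 (0.148). With the animal as a block Qprt also passed, with adjusted p = 0.00357 at 0.1 µM, 1.26e-04 at 1 µM and 3.97e-05 at 10 µM, and Kynu did at 0.1 µM (9.83e-04). With the block 2509, 4424 and 4759 of the 8843 genes passed at 0.1, 1 and 10 µM. None of the 6 passed at 0.001 or 0.01 µM, where 0% and 0.69% of all genes did, and none of the 6 had an unadjusted p under 0.05. At 0.001 µM 20 of all genes had one.

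Time in culture without the agent was read in the 0 µM arrays. Kmo and Aadat were singled out by differences from these same arrays, so they are described without a test. None of the other 6 genes passed between 72 and 2 h, when 3.4% of all genes did and the median of all genes was -0.17. At an unadjusted p under 0.05 the count was 3 of the 6, and 1629 of all 8843 genes. Acmsd was 4.24, 4.15, 5.76 and 5.09 at 72 h, against 5.42, 5.91 and 5.58 at 2 h (Rs627, Rs631 and Rs632). The difference was -0.83 ± 0.36 (adjusted p = 0.184), and -0.72 with the animal as a block (adjusted p = 0.0178). Tdo2 also passed only with the block (-0.23, adjusted p = 0.0356), and it was lower at 72 h in 3 of 3 rats. It was 12.02, 12.41 and 12.51 at 72 h, against 12.49, 12.59 and 12.60 at 2 h (Rs627, Rs631 and Rs632). The Rs627 array at 72 h was the lowest of all 100 for Tdo2. With the block 1147 of the 8843 genes passed this contrast. Kmo at 0 µM was 6.41 ± 0.37 at 2 h (SD, n = 3), 5.83 ± 0.64 at 6 h (n = 4), 5.78 ± 0.58 at 12 h (n = 3), 6.78 ± 0.47 at 24 h (n = 3) and 6.15 ± 0.79 at 72 h (n = 4). Levels next to each other in size differed by less than their spread, but from 12 to 24 h the mean rose by more than either group's SD. The 24 h group had the highest mean, serves as reference for the agent at that time, and had no Rs628 array. Aadat at 0 µM was 9.23 ± 0.12, 9.07 ± 0.07, 9.26 ± 0.21, 9.34 ± 0.07 and 8.94 ± 0.38 at the same times, and differed by -0.29 ± 0.19 between 72 and 2 h.

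The rats differed in every one of the 8 genes by an F test of the rat in limma, as did 87.8% of all genes. Haao was highest in Rs631 and lowest in Rs628, 1.49 apart on the log2 scale (2.81-fold, adjusted p = 2.13e-22), a range larger than that of 97.0% of genes tested. Kmo was again lowest in Rs628 and highest in Rs631 (adjusted p = 1.58e-09). Its range as measured was 1.12, but 13 of 21 arrays of Rs628 and 28 of 30 of Rs631 were above the floor, so the size of this difference is not settled. The median range of all genes was 0.31.

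Rs628 had the lowest value in all of these genes but 1, with Kmo and Acmsd taken as measured. In how many of all genes Rs628 was lowest was not counted, so this is not read as a trait of the pathway. Rs628 and Rs627 lay close for Tdo2 (-0.05 and -0.03 from the mean of the rats). They also lay close for Acmsd (-0.32 and -0.28 as measured), where most arrays of both were under the floor and have no order. The exception was Qprt, which was highest in Rs627 and lowest in Rs631, 0.70 apart (adjusted p = 2.25e-23). The ranges were 0.74 for Kynu, 0.46 for Aadat, 0.42 for Afmid and 0.13 for Tdo2. For Acmsd 1 of 21 arrays of Rs628 and 19 of 30 of Rs631 were above the floor, and no range is given. Rs628 had no array at 0 µM at 2 or 24 h, so a group mean there lacks the lowest rat, and the Kmo difference at 1 µM and 24 h was -2.25 with the rat in the model. Tdo2 lost its call between rats without Rs632 (adjusted p = 0.293). In the 12 h arrays at 0 µM, Haao was 7.87 in the array labelled Rs627 and 9.21 in the array labelled Rs628, the reverse of their order in every other group that held both rats.

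**Figure D4:**
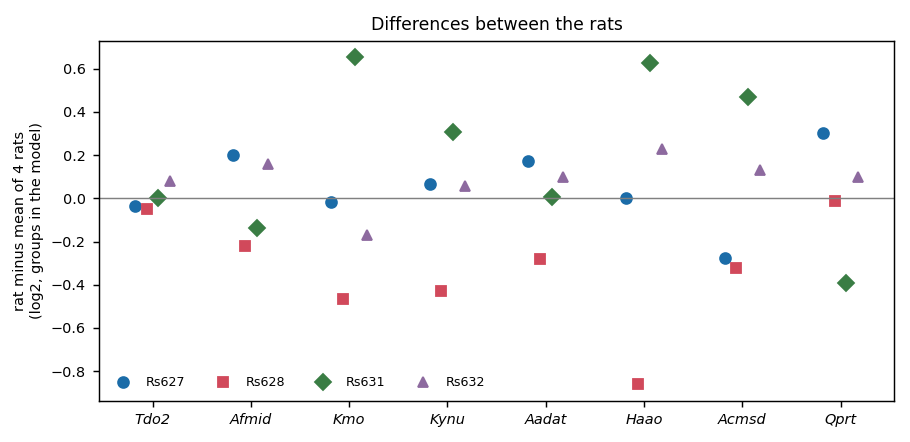
Deviation of each rat from the mean of the 4 rats (log2, from the model with 30 groups and the rat) for the 8 genes, with a symbol per rat. Rs628 lies lowest in all but Qprt, and the spread is widest for Haao, with Kmo and Acmsd drawn as measured, also under the floor of 5.

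Genes with a pattern most like these were sought by Pearson's r over the 30 group means, as a description, since groups share rats, times and the 0 µM arrays. For Kmo they were Klkb1 (prekallikrein, r = 0.95), Gsdmd (gasdermin D, 0.93), Prodh (proline dehydrogenase, 0.93), Gcgr (the glucagon receptor, 0.92) and Car5a (a mitochondrial carbonic anhydrase, 0.91). For Aadat they were Pc (pyruvate carboxylase), Cyp8b1 (a bile acid hydroxylase), Slc22a18 and Cyp2d3, each at r = 0.98, and Asgr1 (the asialoglycoprotein receptor, 0.97). Among the 8 genes themselves, Aadat had r = 0.97 with Afmid, 0.92 with Qprt, 0.84 with Kynu, -0.83 with Acmsd and -0.71 with Kmo. Kmo had r = 0.84 with Acmsd. Values under the floor of 5 entered as measured, and Acmsd exceeded it in 38 of 100 arrays and Kmo in 79. The r values of either gene thus rest in part on values that have no order.

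Genes next to the pathway came from lists that were put together with earlier results of these data known, and were read at 1 µM and 72 h. At that time 11.3% of all genes rose and 15.5% fell. Of 10 tested genes of NAD synthesis and nicotinamide handling 6 passed, all in the higher direction, with a median log2 change of 0.32 over the 10 beside -0.06 for all genes. One of the 6, Nmnat2, was under the floor in all 4 arrays at 1 µM and all 4 at 0 µM (means 4.76 and 4.39), so no change can be read from it. The others were the NAD kinases Nadk2 (0.76 ± 0.17, adjusted p = 4.00e-04) and Nadk (0.27 ± 0.07, adjusted p = 0.00348), Nmnat1 (0.63 ± 0.15, adjusted p = 4.76e-04), which joins the nucleotide to ATP, and Naprt and Nampt, which salvage nicotinic acid and nicotinamide (0.53 ± 0.12 and 0.49 ± 0.18, adjusted p = 3.16e-04 and 0.0321). Nadsyn1, which follows Qprt in the route from tryptophan, differed by -0.02 ± 0.45 (adjusted p = 0.981).

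Of 9 tested genes of glutarate and lysine breakdown, 4 rose and 1 fell. The risers Acat1 (2.46 ± 0.11), Hadh (1.15 ± 0.12), Gcdh (0.83 ± 0.12) and Echs1 (0.67 ± 0.13) handle acyl-CoA intermediates, and all but Gcdh also serve fatty acid oxidation or the making of ketone bodies (adjusted p from 6.60e-31 to 2.14e-05). Aass, the first enzyme of lysine breakdown, fell (-0.60 ± 0.23, adjusted p = 0.0472). Of 4 tested enzymes that enter tryptophan breakdown or branch from it, Got2, an aminotransferase that also acts on kynurenine, rose (0.34 ± 0.07, adjusted p = 5.03e-05), while Kyat1, Ddc and Maoa did not pass (adjusted p = 0.801, 0.711 and 0.147).

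In tyrosine breakdown Hgd (1.17 ± 0.32, adjusted p = 0.00333), Gstz1 (1.00 ± 0.18, adjusted p = 1.25e-05) and Fah (0.62 ± 0.11, adjusted p = 5.37e-06) rose among 5 tested genes, and Tat and Hpd did not pass (adjusted p = 0.0985 and 0.532). Slc3a2, the heavy chain of the transporter that carries tryptophan, rose (0.56 ± 0.16, adjusted p = 0.00495), and Slc7a5, its light chain, differed by -0.60 ± 0.31 as measured (adjusted p = 0.153), with 1 of 4 arrays at 1 µM and 4 of 4 at 0 µM above the floor. The log2 summed intensity of the hepatocyte markers at 72 h was 14.71 to 14.90 at 1 µM, against 14.99 to 15.12 at 0 µM. For 4 bile duct markers it was 9.60 to 10.30 at 1 µM, against 9.81 to 11.29 at 0 µM, with Sox9 at or under 5 in every array. For 6 stellate cell markers it was 7.18 to 8.22 at 1 µM, against 7.34 to 7.78 at 0 µM, with Des, Lrat and Col1a1 at or under 5 in every array. The 6 macrophage markers summed to 5.85 to 7.11 at 1 µM, against 5.82 to 6.75 at 0 µM, and the 4 endothelial ones to 5.07 to 5.19, against 4.96 to 5.09. The excess of 3′ over 5′ actin signal, a sign of RNA quality, was 1.75 to 2.08 at 1 µM, against 1.42 to 1.83 at 0 µM (log2). The part of these differences in the results was not tested.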

How the data were processed

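RNA from 100 hepatocyte cultures was labelled with a 3′ IVT kit and measured on Affymetrix arrays, per the labels' protocols. The deposited table held log2 intensities made by the authors. Their processing notes name GCRMA and Partek, with neither version nor role given in the sources used here, and an array's precision is limited by the number of arrays. Of 31139 probe sets 19069 had a single symbol, and per gene the one with the highest mean was kept. Genes above 5 in at least 3 arrays were tested.

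limma 3.58.1 in R 4.3.3 fitted 30 group means to all arrays (70 residual degrees of freedom), with two-sided moderated tests and Benjamini-Hochberg adjustment over 8843 genes at 0.05. The script was tested on simulated data in which arrays were independent and the rats did not differ, unlike here. That run does not show how the test behaves with arrays paired by rat. Alternatives changed the filter, the scaling, the arrays used and the rat as a block; 2 of them, on the doubtful arrays at 12 h, were chosen after seeing the data.

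The rats pair arrays by animal, as the labels give. The median correlation of deviations from group means was 0.62 between arrays of the same rat and -0.23 between rats, with 0.52 for the lowest rat. P-values thus describe the spread over arrays of 4 rats, of which a group holds 2 to 4. The named genes were the 8 chosen by name, the 5 most correlated with Kmo and with Aadat, and measured genes of the lists. Genes and lists were chosen with earlier results of these data known.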

Additional observations from a re-analysis of the deposited data

Results flagged for a closer look

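Among 96 groups of 4 arrays, 12 for each of the 8 genes, 7 had an array far from the other 3 by Dixon's test, which chance gives in about 5% of groups. Acmsd stood high in Rs631 at 1 µM, with log2 intensities of 5.59 at 6 h, 4.56 at 12 h and 3.97 at 72 h, the last 2 of them under the floor of 5, where values have no order. Aadat stood high in Rs627 at 1 µM and 6 h (9.42) and low in Rs628 at 0.001 µM and 72 h (8.63). Kynu stood low in Rs628 at 0.001 µM and 24 h (8.86). Qprt stood low in Rs631 at 1 µM and 24 h (9.56), in an array of low overall signal, while Rs631 at 0 µM and 24 h was 9.27. Each flagged array came from the rat that was highest or lowest for its gene over all groups, with Acmsd taken as measured. What set these arrays apart was not tested.

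The change of Afmid at 1 µM differed between 72 and 6 h by 1.46 on the log2 scale by limma's test of the difference itself (adjusted p = 2.09e-04).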

How the results depend on the processing

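With the rat as a replicate block, and with the block after exchanging the 2 doubtful arrays at 12 h, more genes passed than without it. Over all genes the counts were 166 and 222 instead of 61 (0.01 µM, averaged over times), 2509 and 2714 instead of 1263 (0.1 µM, averaged), 74 and 86 instead of 33 (1 µM, 2 h), 416 and 474 instead of 180 (6 h), 998 and 1118 instead of 478 (12 h), 4405 and 4668 instead of 2619 (24 h), 3564 and 3703 instead of 2373 (72 h), 1423 and 1558 instead of 473 (72 h minus 6 h), and 1147 and 1368 instead of 301 (72 against 2 h at 0 µM). Of the pathway genes, 0 and 1 passed instead of 0 at 0.01 µM averaged, 4 and 4 instead of 2 at 0.1 µM averaged, 2 and 2 instead of 0 at 12 h, 4 and 4 instead of 1 for 72 h minus 6 h, and 2 and 3 instead of 0 for 72 against 2 h. The block lost none of the calls of pathway genes.

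Fitting the compared times alone gave 260 genes at 12 h and 9 at 2 h. Without the doubtful arrays 177 passed at 12 h. At 24 h 1431 passed without the arrays that share a code and 1301 without those of low signal, and quantile normalization split the calls there as 923 higher and 1378 lower, against 624 and 1995. For 72 against 2 h at 0 µM the count was 42 with median centring, 82 with quantile normalization, 1357 with no filter, 688 without arrays sharing a code and 616 without those of low signal. At 0.1 µM averaged, 1 pathway gene passed with a filter at 7, which removes Acmsd, and 1 without arrays sharing a code.

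Leaving out each rat in turn gave 24 to 105 genes (0.01 µM averaged), 604 to 1683 (0.1 µM), 1861 to 3401 instead of 3128 (1 µM), 2153 to 3790 instead of 3488 (10 µM), 10 to 22 (2 h), 104 to 143 (6 h), 283 to 707 (12 h), 867 to 3368 (24 h), 1522 to 2192 (72 h), 174 to 406 (72 h minus 6 h) and 52 to 195 (72 against 2 h). Of the 6 genes 0 to 3 passed at 0.1 µM averaged, 0 to 1 at 12 h, 1 to 3 at 24 h and 2 to 4 at 72 h. The low counts at 24 and 72 h came without Rs632, and at 72 h also without Rs627. Kmo at 1 µM ranged from -2.65 to -2.06 at 24 h and from -1.94 to -1.27 at 72 h.

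Uncalled changes that turned sign were those of Haao, Tdo2, Kmo and Qprt. For Haao the change was -0.0293 without the doubtful arrays at 0.1 µM averaged, 0.229 without arrays sharing a code at 12 h, 0.000859 with the block and 0.0249 with the exchanged block at 24 h, and 0.0481 and 0.0622 with these at 1 µM averaged. Leaving out each rat gave -0.0534 to 0.205 (0.1 µM averaged), -0.689 to 0.547 (12 h), -0.224 to 0.180 (1 µM averaged) and -0.363 to 0.177 (10 µM averaged) for Haao. It gave -0.0034 to 0.0688 (0.1 µM averaged) and -0.154 to 0.000867 (24 h) for Tdo2, and -0.426 to 0.0141 (72 against 2 h) for Kmo. Qprt for 72 against 2 h was 0.0691 with median centring and 0.0678 with quantile normalization. The calls of Afmid at 1 µM at 24 and 72 h held under all alternatives run. The causes of these shifts were not tested. Values under 5 limit Kmo and Acmsd.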
